A study of Rattus norvegicus with 19 samples.

Results

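The endothelin system genes described here are the ligand genes Edn1 and Edn3, the converting enzyme gene Ece1 and the receptor genes Ednra and Ednrb. They were chosen by symbol for their roles, and all 5 were found among the 17455 gene symbols of the count files. Of these 5, 4 passed the filter on low counts, which kept 12388 genes for testing, and Edn3 did not.

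Endothelins are short peptides that constrict blood vessels and are released mainly by endothelial cells. A large precursor is first cleaved by furin-type proteases to an inactive intermediate, which endothelin-converting enzyme, the product of Ece1, turns into the active peptide. The type A receptor (Ednra) on smooth muscle cells and cardiomyocytes couples to Gq and protein kinase C and promotes contraction and growth, while the type B receptor (Ednrb) on endothelial cells raises nitric oxide and removes the peptide from the circulation.

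The study measured left ventricular RNA of Sprague-Dawley rats with heart failure with preserved ejection fraction (HFpEF), before and after treatment with empagliflozin (EMPA), pirfenidone (PFD) or both. Empagliflozin inhibits the renal glucose transporter SGLT2, and pirfenidone is an antifibrotic drug. The rats were 24 weeks old at the start, and every sample is labelled Wildtype and male, and the paper names male hearts for the RNA, while the equal numbers of both sexes in the series' text are for the whole groups of rats. The 19 libraries are separate hearts by the study's text, and the authors left out 1 EMPA and 1 PFD sample for corrupted files.

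Control 5w (n = 3) and control 9w (n = 3) were control rats on normal chow that drank water without L-NAME, taken at week 5 and week 9. HFpEF rats (n = 3) were taken at week 5, after drinking 0.5 g/L of L-NAME, which blocks the enzyme that makes nitric oxide, and eating a diet with 60% of its calories from fat. The other groups were made into HFpEF rats in the same way for 5 weeks, were then gavaged daily for 4 weeks, and were taken at week 9. The paper's methods give 5 weeks for L-NAME and the diet, while its discussion names an induction of 9 weeks. Whether both continued during the gavage is therefore unclear. Untreated rats (n = 3) received phosphate-buffered saline, EMPA rats (n = 2) 0.35 g/kg of empagliflozin per day, PFD rats (n = 2) 0.3 g/kg of pirfenidone per day, and EMPA + PFD rats (n = 3) both drugs at these doses. Effects of L-NAME and of the diet cannot be told apart.

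The libraries held 7430539 to 13017754 counts, with a median of 9951011. Levels are given as CPM, a library's counts scaled to a common total by TMM, and 3 counts, the floor below which a level was not read, correspond to 0.215 to 0.399 CPM.

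Some libraries stood apart or went against their labels. Counts of the Y-linked gene Eif2s3y ran from 613 to 1321 in 12 libraries but were 0 in 7, namely HFpEF replicates 1 and 3, untreated replicates 1, 2 and 3, and PFD replicates 1 and 2, all of them labelled male. For the MHC class I gene RT1-CE16, the 8 libraries from the control 5w, HFpEF and EMPA groups had at most 3 counts and the others 308 to 922. This split therefore cannot be told apart from the group between the controls, between EMPA and untreated, and between HFpEF and untreated or EMPA + PFD. All untreated and PFD libraries lacked Eif2s3y counts and all control, EMPA and EMPA + PFD libraries had them, so the presence of Eif2s3y and the group cannot be told apart where untreated rats are compared with control 9w, EMPA or EMPA + PFD. HFpEF alone was mixed, so a fit with Eif2s3y detection as a term takes that term from the 3 HFpEF libraries, and a fit of libraries with Eif2s3y counts holds 1 HFpEF library.

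Markers of atrial muscle were also uneven among these left ventricles. The atrial myosin light chain gene Myl7 was at 1083, 10.3 and 4260.0 CPM in control 9w replicates 1, 2 and 3 and at 23.95, 3052 and 44.4 CPM in the untreated replicates. It was at 694, 293 and 307 CPM in control 5w and at most 39.7 CPM in every other library. The whole list of 8 atrial and conduction genes, 78.1% of it Nppa, summed to 5248, 229.6 and 23417 CPM in control 9w and to 85.7, 14944 and 519 CPM in untreated. Cardiomyocyte genes were present throughout, with a sum of 9 markers from 10686 CPM in HFpEF replicate 1 to 88869 CPM in EMPA + PFD replicate 2. Myh6 was the most abundant of them by its mean over all libraries. Tnnt2 exceeded Myh6 in some libraries, such as HFpEF replicate 1 (2956 against 824 CPM) and EMPA replicate 2 (8608 against 1707 CPM).

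Edn1 encodes the precursor of endothelin-1, the main endothelin of blood vessels. At week 5 its level was 2.54, 14.0 and 11.6 CPM in control 5w and 23.5, 7.06 and 9.91 CPM in HFpEF. At week 9 it was 16.9, 11.1 and 22.8 CPM in control 9w and 2.74, 17.6 and 3.69 CPM in untreated. In the treated groups it was 3.46 and 14.0 CPM with EMPA, 5.915 and 2.98 CPM with PFD, and 3.43, 3.47 and 6.16 CPM with EMPA + PFD. Single libraries set most group means: control 5w replicate 1 lay far below its partners, and HFpEF replicate 1, untreated replicate 2 and EMPA replicate 2 far above theirs. Only PFD and EMPA + PFD had all libraries low, and every EMPA + PFD library lay below every HFpEF and every control 9w library. Such a lack of overlap, in either direction, was common in these comparisons, at 54.7% and 51.2% of all tested genes.

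Edn1 was the least abundant of the tested members in counts, with 26 to 327 counts per library, and the most variable. Its highest level was 9.23 times its lowest, and its biological coefficient of variation within groups was 0.608, against a median of 0.195 over all tested genes. The order of the group means, with SD, was control 9w (16.9 ± 5.88 CPM), HFpEF (13.5 ± 8.77), control 5w (9.38 ± 6.03), EMPA (8.715 ± 7.43), untreated (8.02 ± 8.33), PFD (4.45 ± 2.07) and EMPA + PFD (4.35 ± 1.57). Each group in this order overlapped the next.

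No change of Edn1 passed the threshold of an adjusted p of 0.05 in edgeR. Edn1 differed most between EMPA + PFD and control 9w, 3.87-fold lower with EMPA + PFD (log2 fold change −1.95, SE 0.771, adjusted p = 0.063), and between EMPA + PFD and HFpEF, 3.09-fold lower (log2 fold change −1.63, SE 0.765, adjusted p = 0.0916). The difference from control 9w passed in DESeq2 (adjusted p = 0.0256) and in voom (0.00535), and the adjusted p ranged from 0.00411 to 0.171 over the alternatives. The difference from HFpEF was −0.96 without HFpEF replicate 1 (adjusted p = 0.363), and over all alternatives its adjusted p ranged from 0.0405 to 0.648.

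Within the model, Edn1 was estimated at 1.44-fold higher in HFpEF than in control 5w (log2 fold change 0.52, 95% interval −1.02 to 2.07, adjusted p = 0.63). That direction turned without HFpEF replicate 1 (−0.15, adjusted p = 0.92), in voom (−0.15) and with Eif2s3y detection as a term (−0.42). Between control 9w and control 5w the log2 fold change was 0.85 (interval −0.70 to 2.40, adjusted p = 0.382). In untreated rats it was 2.09-fold lower than in control 9w (−1.06, interval −2.63 to 0.50, adjusted p = 0.473). Against untreated rats, the log2 fold change was −0.89 (interval −2.52 to 0.74, adjusted p = 0.426) with EMPA + PFD, 0.11 (−1.66 to 1.88, adjusted p = 0.992) with EMPA and −0.87 (−2.72 to 0.99, adjusted p = 0.797) with PFD. These intervals are wide and include fold changes above 2 in at least 1 direction, and the last 3 turned with single libraries. Without untreated replicate 2 the estimate became 0.44 for EMPA + PFD (adjusted p = 0.79) and 0.46 for PFD, and without EMPA replicate 2 it became −1.23 for EMPA.

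The Edn1 level ran with the make-up of the libraries. Against the summed cardiomyocyte markers its Pearson correlation was −0.768 and its Spearman correlation −0.805 over 19 libraries, which share groups, with −0.834 after the group means were removed. The library with the most Edn1, HFpEF replicate 1, had the lowest cardiomyocyte sum (10686 CPM), and control 5w replicate 1, with the least Edn1, had 79231 CPM against 33519 and 37623 CPM in its partners. Among the other lists, the Pearson correlation with Edn1 was 0.718 for the endocardial sum, 0.706 for the atrial sum and 0.0897 for the endothelial sum. With group means removed it was 0.835 for Schwann cell and nerve genes, 0.83 for fibroblast genes, 0.796 for macrophage genes and −0.505 for endothelial genes, so no single list stood out. A single gene made up much of some sums, with Cdh11 at 73.8% of the endocardial, Lyz2 at 57.8% of the macrophage and Col3a1 at 47.7% of the fibroblast sum. The part of these shifts in the Edn1 values was not tested, and in bulk tissue fewer cells of a type and less RNA per cell cannot be told apart.

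Edn3 encodes endothelin-3, a ligand that acts mainly through the type B receptor. It had 1 count in HFpEF replicate 1 and 0 counts in the other 18 libraries, so its level was under the floor in every library and no difference could be read. Edn2, another ligand gene, is in the pathway list and not among the members. It had 0 to 6 counts per library and was not tested either.

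**Figure D1:**
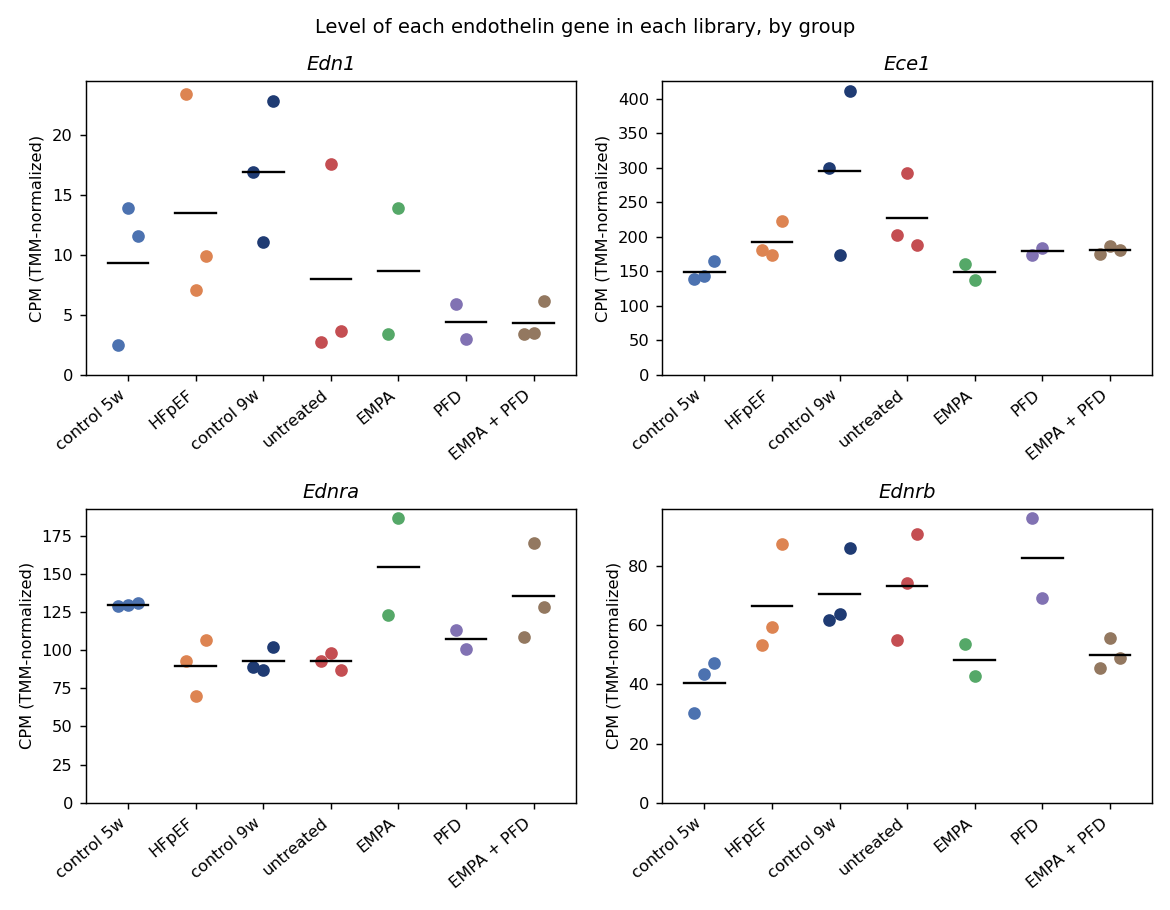
CPM (TMM-normalized, vertical axis) of Edn1, Ece1, Ednra and Ednrb in each of the 19 libraries, by group (horizontal axis); points are libraries in the order of their replicate numbers and black lines are group means. Edn1 spreads from 2.54 to 23.5 CPM with all neighbouring groups overlapping, and the control 5w libraries of Ednra lie together between 129 and 131 CPM.

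Ece1 encodes the endothelin-converting enzyme that releases the active peptide. At week 5 its level was 139, 144 and 166 CPM in control 5w and 182, 173 and 222 CPM in HFpEF. At week 9 it was 299.6, 173 and 412 CPM in control 9w and 202, 292 and 188 CPM in untreated. With treatment it was 161 and 137 CPM in EMPA, 174 and 184 CPM in PFD, and 176, 187 and 180.3 CPM in EMPA + PFD. The control 5w and EMPA libraries were low, the PFD and EMPA + PFD libraries lay close together, and control 9w replicates 1 and 3 and untreated replicate 2 stood above the rest. The means ran from control 9w (295 ± 119 CPM) over untreated (227 ± 56.4), HFpEF (192 ± 26.3), EMPA + PFD (181 ± 5.78) and PFD (179 ± 6.99) to control 5w (149 ± 14.3) and EMPA (149 ± 16.7), and only PFD and control 5w, of the neighbours in this order, did not overlap.

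Ece1 was 1.97-fold higher in control 9w than in control 5w, with all 3 control 9w libraries above all 3 control 5w libraries (log2 fold change 0.98, SE 0.240, adjusted p = 0.00683). The libraries of these groups did not overlap for 49.4% of all tested genes. It passed in every alternative, and its size varied: without control 9w replicate 3 it was 0.66 (adjusted p = 0.0329), and without control 9w replicate 2 it was 1.25 (adjusted p = 0.0013), which met the fold of the DEG rule. The DEG rule was also met without control 5w replicate 3 (1.06, adjusted p = 0.0167). Ece1 was 1.63-fold lower in EMPA + PFD than in control 9w (log2 fold change −0.70, SE 0.239, adjusted p = 0.0346), although EMPA + PFD overlapped control 9w through replicate 2. This second difference did not pass without control 9w replicate 3 (−0.39, adjusted p = 0.199), without control 9w replicate 1 (adjusted p = 0.0799) or without any single EMPA + PFD library (adjusted p = 0.0834 to 0.087), nor with only the groups compared (0.0771) or with a replicate block (0.0515).

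Both comparisons use the same control 9w libraries. There the order of Ece1 over replicates 3, 1 and 2 was that of Myl7 (4260.0, 1083 and 10.3 CPM) and of the natriuretic peptide receptor gene Npr3, a marker of endocardium (182, 79.9 and 3.08 CPM). Untreated replicate 2, with 3052 CPM of Myl7, also had the most Ece1 of its group. The part of these transcripts in the Ece1 differences was not tested. Over the 19 libraries Ece1 had a Pearson correlation of 0.362 with the atrial sum (Spearman 0.0175) and 0.594 with the sum of 3 endocardial markers (Spearman 0.182). With group means removed the Pearson values were 0.694 and 0.809, so a relation showed within groups and hardly in the ranks over all libraries. Without control 9w replicate 3 and untreated replicate 2, a choice made after seeing the data, the difference between the controls was 0.67 (adjusted p = 0.0153) and that between EMPA + PFD and control 9w −0.39 (adjusted p = 0.13).

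Endothelial markers also moved in both Ece1 comparisons. Of the 12 genes, 11 were higher in control 9w than in control 5w (median log2 fold change 1.15) and 10 were lower in EMPA + PFD than in control 9w (−1.01) at an adjusted p under 0.05, against 34.5% and 33.8% of all genes in either direction. The Pearson correlation of Ece1 with the sum of the 12 genes was 0.529 over 19 libraries (−0.0813 with group means removed). Per 1000 CPM of that sum, Ece1 was at 64.7, 82.4 and 82.5 CPM in control 5w, 65.5, 36.0 and 104 CPM in control 9w, and 69.4, 86.1 and 80.5 CPM in EMPA + PFD, so on this scale the groups overlapped. The part of these markers in the Ece1 differences was not tested.

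In the other comparisons of groups Ece1 did not pass in edgeR. The log2 fold change was 0.37 for HFpEF against control 5w (SE 0.238, adjusted p = 0.285), where all 3 HFpEF libraries lay above all 3 controls, a separation seen for 37.7% of all tested genes in either direction. It was −0.38 for untreated against control 9w (SE 0.238, adjusted p = 0.431), where it passed in voom (−0.60, adjusted p = 0.00396). In edgeR that value was −0.059 without control 9w replicate 3 (adjusted p = 0.918) and −0.65 without control 9w replicate 2. Without control 9w replicate 3 and untreated replicate 2 together it was −0.28. Against untreated rats the log2 fold change was −0.33, −0.61 and −0.34 for EMPA + PFD, EMPA and PFD (adjusted p = 0.345, 0.545 and 0.786). Without untreated replicate 2 these values were −0.11, −0.39 and −0.12. Every library of the 3 treated groups had less Ece1 than every untreated library, the nearest values being 187 CPM in EMPA + PFD replicate 2 and 188 CPM in untreated replicate 3. Of all tested genes, 37.4%, 23.7% and 24.2% likewise did not overlap between untreated rats and EMPA + PFD, EMPA and PFD.

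Ednra encodes the type A receptor, through which endothelin constricts vessels. At week 5 its level was 129, 129 and 131 CPM in control 5w and 92.7, 69.8 and 106 CPM in HFpEF. At week 9 it was 89.1, 87.1 and 102 CPM in control 9w and 92.8, 98.2 and 86.7 CPM in untreated. With treatment it was 123 and 187 CPM in EMPA, 113 and 101 CPM in PFD, and 108, 170.1 and 129 CPM in EMPA + PFD. The control 5w libraries lay above all libraries of HFpEF, control 9w, untreated and PFD, while EMPA and EMPA + PFD held the highest single libraries. The order of the means was EMPA (155 ± 45.3 CPM), EMPA + PFD (136 ± 31.5), control 5w (129.5 ± 0.984), PFD (107 ± 9.03), control 9w (92.7 ± 8.09), untreated (92.6 ± 5.725) and HFpEF (89.6 ± 18.5), and all neighbours overlapped except control 5w and PFD.

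Ednra was 1.51-fold higher in EMPA + PFD than in HFpEF (log2 fold change 0.60, SE 0.184, adjusted p = 0.0165) and 1.46-fold higher than in control 9w (0.55, SE 0.184, adjusted p = 0.0331). In both comparisons all 3 EMPA + PFD libraries lay above all libraries of the other group, which does not set Ednra apart, since 54.7% and 51.2% of all tested genes did not overlap there. Neither passed without EMPA + PFD replicate 2 (0.42 and 0.36, adjusted p = 0.0892 and 0.165), and the first did not pass without HFpEF replicate 2 (adjusted p = 0.0694) or with only the groups compared (0.0577). The second did not pass without control 9w replicate 1 or 2 (adjusted p = 0.0941 and 0.103), with upper quartile normalization (0.0501) or among libraries with Eif2s3y counts (0.51, adjusted p = 0.0562).

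Marker lists moved in the same comparisons, in which 46.8% (against HFpEF) and 33.8% (against control 9w) of all genes had an adjusted p under 0.05. Against HFpEF, EMPA + PFD had 8 of 9 cardiomyocyte genes higher (median log2 fold change 1.82), and 6 of 6 lymphocyte genes (−1.85), 6 of 8 macrophage genes (−1.72) and 5 of 8 fibroblast genes lower at an adjusted p under 0.05. Schwann cell and nerve genes were lower there as well, 5 of 7 (−1.65). Against control 9w EMPA + PFD had 4 of 9 cardiomyocyte genes higher (1.34) and 10 of 12 endothelial genes lower (−1.01). Of the 8 atrial and conduction genes, 5 were lower and 1 higher in that comparison (−6.13). With group means removed, the Pearson correlation of Ednra was −0.805 with the mast cell sum, 0.602 with the Schwann cell and nerve sum, 0.553 with the atrial sum and −0.507 with the endothelial sum. By library size alone, without TMM, Ednra averaged 117 CPM in EMPA + PFD, 98.89 CPM in HFpEF and 98.87 CPM in control 9w, smaller differences than after TMM. The part of these shifts in the Ednra differences was not tested.

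Ednra also lay near the threshold elsewhere. Against untreated rats, with all EMPA + PFD libraries above all untreated ones (37.4% of all genes did not overlap), it was 1.47-fold higher with EMPA + PFD (log2 fold change 0.55, SE 0.184, adjusted p = 0.0614, range 0.00614 to 0.251 over the alternatives), and it passed in DESeq2 (0.0226) and voom (0.00614). With EMPA alone the log2 fold change was 0.74 (SE 0.203, adjusted p = 0.246), and it was 0.40 without EMPA replicate 2 and 1.01 without EMPA replicate 1. With PFD alone the log2 fold change was 0.21 (SE 0.205, adjusted p = 0.795). Against control 5w, which lay above both groups (37.7% and 49.4% of all genes did not overlap), it was −0.53 in HFpEF (SE 0.184, adjusted p = 0.0542, range 0.0271 to 0.187) and −0.48 in control 9w (SE 0.184, adjusted p = 0.0547, range 0.000146 to 0.157). The Ednra level also ran with marker lists: its Pearson correlation over the 19 libraries was −0.63 with the endothelial sum and −0.821 with the mast cell sum, of which Kit made up 75.6%. With the smooth muscle and pericyte sum the Pearson correlation was 0.255 (Spearman −0.105). That sum was highest, at 3828.5 CPM, in EMPA replicate 2, the library with the most Ednra. The part of these lists in the Ednra values was not tested. Untreated rats and control 9w had nearly the same mean, with a log2 fold change of 0.00 and an interval of −0.40 to 0.39 (adjusted p = 0.996).

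Eif2s3y detection as a term moved several Ednra values. Between untreated and control 9w the log2 fold change became −0.51 (adjusted p = 0.558), and against untreated rats it became 1.06 with EMPA + PFD (adjusted p = 0.0658) and 1.25 with EMPA (adjusted p = 0.204). Between HFpEF and control 5w it became −0.89 and passed (adjusted p = 0.0376). The term rests on HFpEF replicate 2, the lowest Ednra library of its group, against replicates 1 and 3, so Eif2s3y detection and that library cannot be told apart here.

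Ednrb encodes the type B receptor, which in endothelial cells clears endothelin and stimulates nitric oxide release. At week 5 its level was 30.3, 43.6 and 47.1 CPM in control 5w and 53.2, 59.2 and 87.5 CPM in HFpEF. At week 9 it was 61.8, 63.7 and 86.05 CPM in control 9w and 54.9, 74.3 and 90.9 CPM in untreated. With treatment it was 53.5 and 42.9 CPM in EMPA, 96.1 and 69.2 CPM in PFD, and 45.4, 55.8 and 49.0 CPM in EMPA + PFD. Control 5w was the lowest group, and EMPA and EMPA + PFD were the lowest groups at week 9. The means ran from PFD (82.65 ± 18.97 CPM), untreated (73.4 ± 18.1), control 9w (70.5 ± 13.5) and HFpEF (66.7 ± 18.3) to EMPA + PFD (50.1 ± 5.29), EMPA (48.2 ± 7.54) and control 5w (40.35 ± 8.85), with every neighbour in the order overlapping.

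Ednrb was 1.75-fold higher in control 9w than in control 5w (log2 fold change 0.80, SE 0.235, adjusted p = 0.0169) and 1.65-fold higher in HFpEF than in control 5w (0.72, SE 0.235, adjusted p = 0.0424). These comparisons share the control 5w libraries, all of which lay below all libraries of both other groups, where 49.4% and 37.7% of all tested genes did not overlap. The first did not pass without control 5w replicate 1 (0.65, adjusted p = 0.0547) or control 9w replicate 3 (0.64, adjusted p = 0.0676), nor without control 9w replicate 3 and untreated replicate 2 together (0.64, adjusted p = 0.0705). The second passed in 12 of the 19 fits that left out 1 library: it was 0.56 without control 5w replicate 1 and 0.48 without HFpEF replicate 3 (adjusted p = 0.139 and 0.168), and also failed without control 5w replicate 2 or 3 (0.0688 and 0.0537), HFpEF replicate 2 (0.0599), control 9w replicate 1 (0.0518) or EMPA + PFD replicate 3 (0.0502). It did not pass either with only the groups compared (0.74, adjusted p = 0.106), with Eif2s3y detection as a term (0.55, adjusted p = 0.283) or among libraries with Eif2s3y counts (0.62, adjusted p = 0.133), where 1 HFpEF library is left.

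In the treated groups Ednrb was 1.46-fold lower with EMPA + PFD than in untreated rats (log2 fold change −0.55, SE 0.235, adjusted p = 0.12), where EMPA + PFD replicate 2 overlapped untreated replicate 1, and it passed in voom (−0.69, adjusted p = 0.0192). It was 1.52-fold lower with EMPA, with both libraries below the untreated ones, as 23.7% of all genes did not overlap there (−0.61, SE 0.267, adjusted p = 0.539), and 1.13-fold higher with PFD (0.17, SE 0.259, adjusted p = 0.855). Untreated and control 9w differed by 0.06 (interval −0.44 to 0.55, adjusted p = 0.929). Against HFpEF and control 9w, the log2 fold change with EMPA + PFD was −0.41 (adjusted p = 0.156) and −0.49 (adjusted p = 0.117). The first passed in voom (−0.66, adjusted p = 0.0222), and the second with only the groups compared (−0.48, adjusted p = 0.0392) and among libraries with Eif2s3y counts (−0.54, adjusted p = 0.047).

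Endothelial markers moved with Ednrb in part of the groups. Of the 12 endothelial genes, Vwf was the most abundant by its mean over all libraries. These genes summed to 2144, 1746 and 2008 CPM in control 5w and 2052, 4379 and 3487 CPM in HFpEF. In control 9w they summed to 4574, 4814.5 and 3953 CPM. They summed to 3552, 4084.5 and 3889 CPM in untreated and to 2529, 2172 and 2241 CPM in EMPA + PFD. The sums in PFD (3055 and 3150 CPM) lay below all untreated ones although PFD had the highest Ednrb mean, and those in EMPA (3624 and 2844 CPM) lay above all EMPA + PFD ones although EMPA had the lower Ednrb mean. Both orders of the Ednrb means turned with scaling by library size alone, at 76.9 CPM in PFD against 77.35 in untreated and 49.0 in EMPA against 43.4 in EMPA + PFD. Of these 12 genes, 11 were higher at an adjusted p under 0.05 in control 9w than in control 5w (median log2 fold change 1.15) and 8 in HFpEF than in control 5w (0.77), and 3 were lower in EMPA + PFD than in untreated (−0.71), with none in the other direction in these 3 comparisons. Of all tested genes, 34.5%, 20.0% and 12.1% passed there in either direction. Per 1000 CPM of the endothelial sum, Ednrb was at 14.2, 25.0 and 23.5 CPM in control 5w, 25.9, 13.5 and 25.1 CPM in HFpEF, and 13.5, 13.2 and 21.8 CPM in control 9w, so on this scale the groups overlapped. Over the 19 libraries the Pearson correlation of Ednrb was 0.608 with the endothelial sum and 0.652 with the mesothelial sum, 96.3% of it Wt1, and with group means removed 0.113 and 0.198. Whether the endothelial share accounts for the Ednrb differences was not tested.

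**Figure D2:**
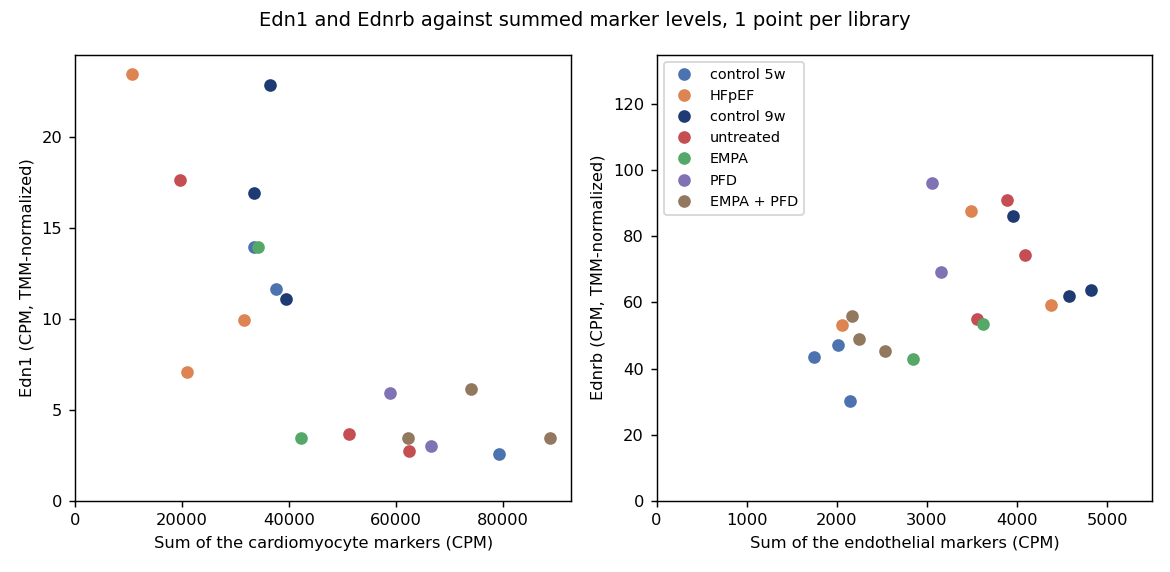
Left, Edn1 level against the sum of 9 cardiomyocyte markers; right, Ednrb level against the sum of 12 endothelial markers, all in TMM-normalized CPM, with 1 point per library colored by group. HFpEF replicate 1 has the most Edn1 (23.5 CPM) and the lowest cardiomyocyte sum (10686 CPM), and the control 5w libraries lie low on both axes of the right panel.

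Across the comparisons, no member met the DEG rule of the study, an adjusted p under 0.05 with a fold change of at least 2, in edgeR. Between the controls of weeks 9 and 5, 2 of the 4 tested members (Ece1 and Ednrb) had an adjusted p under 0.05, as did 34.5% of all genes, and 14.7% of all genes were DEGs. Between HFpEF and control 5w 1 of 4 members (Ednrb) passed, against 20.0% of all genes and 8.69% as DEGs. Between untreated and control 9w 0 of 4 passed, against 1.78% of all genes and 0.912% as DEGs. These shares do not set the members apart from the other genes.

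The treatment comparisons gave few calls as well. Between EMPA + PFD and untreated 0 of 4 members passed, against 12.1% of all genes and 3.82% as DEGs. With EMPA alone 0 of 4 passed against 0.0404% of all genes, all of these DEGs (also 0.0404%), and with PFD alone 0 of 4 against 0.00807%, again all DEGs. Between EMPA + PFD and HFpEF, groups that differ in week as well as in treatment, 1 of 4 passed (Ednra), against 46.8% of all genes and 22.7% as DEGs. Between EMPA + PFD and control 9w 2 of 4 passed (Ednra and Ece1), against 33.8% of all genes and 12.1% as DEGs, and between untreated and HFpEF 0 of 4, against 0.226% and 0.194%. Several of these comparisons share the untreated, EMPA + PFD or control 9w libraries.

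Without adjustment, a p under 0.05 in edgeR was reached by 3 of 4 members between the controls (45.4% of all genes), 2 between HFpEF and control 5w (35.8%) and 0 between untreated and control 9w (18.2%). Against untreated it was reached by 2 for EMPA + PFD (32.7% of all genes), 3 for EMPA (8.63%) and 0 for PFD (5.21%). It was reached by 1 between EMPA + PFD and HFpEF (54.9%), 3 between EMPA + PFD and control 9w (44.4%) and 0 between untreated and HFpEF (22.7%).

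Other tools called more members and more genes. By the adjusted p, DESeq2 called 3 of 4 members between the controls (38.6% of all genes), 2 between HFpEF and control 5w (26.0%), 0 between untreated and control 9w (6.69%) and 1, Ednra, for EMPA + PFD against untreated (20.6%). It called 0 for EMPA (0.783%), 0 for PFD (0.0404%), 1 between EMPA + PFD and HFpEF (50.2%), 3 between EMPA + PFD and control 9w (37.5%) and 0 between untreated and HFpEF (7.75%). In the same order voom with quality weights called 3 (70.7% of all genes), 2 (40.5%), 2 (40.4%) and 2 (30.0%), then 0 (0.396%), 0 (0.0404%), 2 (52.0%), 3 (54.7%) and 1 (27.8%).

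DESeq2 found 1 member as a DEG, Edn1 between EMPA + PFD and control 9w, and 0 in every other comparison. In voom Edn1 was a DEG in that comparison, between untreated and control 9w (log2 fold change −2.15, adjusted p = 0.00175), and between untreated and HFpEF (−1.48, adjusted p = 0.0448). In edgeR, without untreated replicate 2, these last 2 differences were −2.40 (adjusted p = 0.0692) and −2.07 (adjusted p = 0.0768). By the adjusted p, 37.5% of all genes passed between EMPA + PFD and control 9w in DESeq2. In voom 54.7% passed there, 40.4% between untreated and control 9w and 27.8% between untreated and HFpEF. The shares of all genes that met the DEG rule in these tools are not given here.

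**Figure D3:**
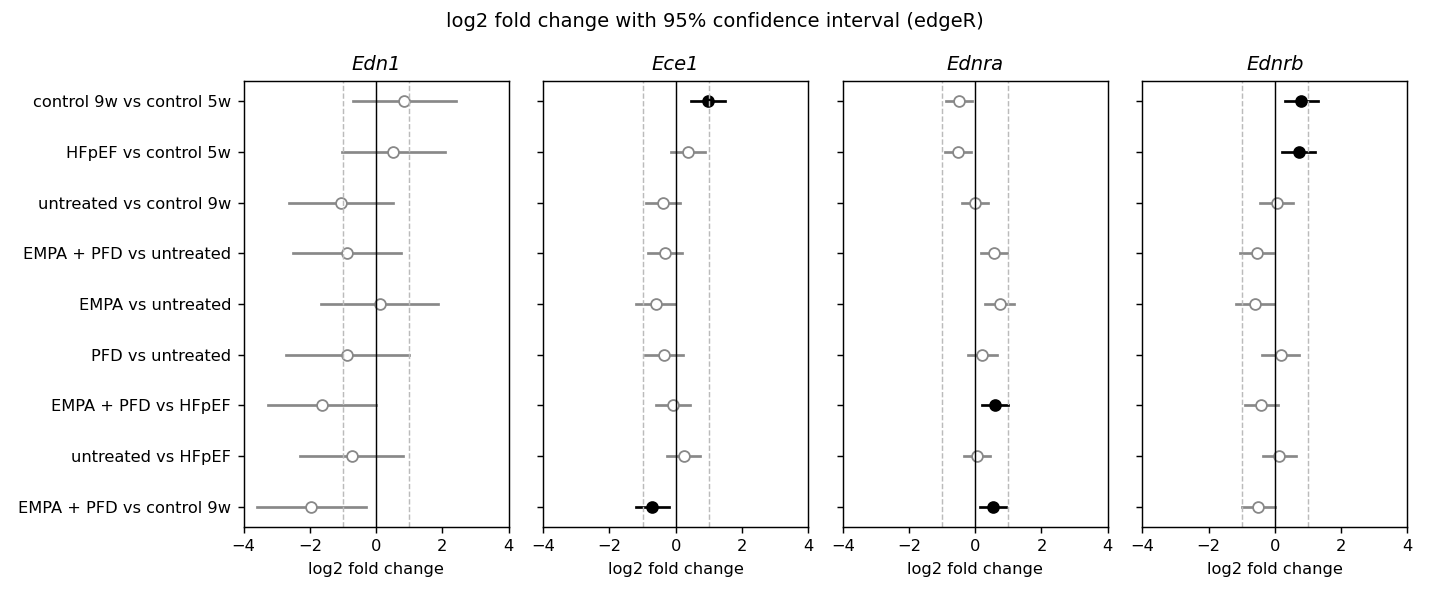
log2 fold change (horizontal axis) of each tested member in 9 comparisons of groups (vertical axis), with 95% confidence intervals from the edgeR fit as lines; filled points have an adjusted p under 0.05 over all genes and dashed lines mark a fold change of 2. The filled points are Ece1 and Ednrb between the controls, Ednrb between HFpEF and control 5w, Ednra between EMPA + PFD and HFpEF, and Ednra and Ece1 between EMPA + PFD and control 9w.

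Whether the effect of the model differed between weeks was tested as the difference between untreated minus control 9w and HFpEF minus control 5w. Its log2 value was −1.59 for Edn1 (SE 1.03, adjusted p = 0.287), −0.74 for Ece1 (SE 0.337, adjusted p = 0.13), 0.53 for Ednra (SE 0.260, adjusted p = 0.161) and −0.67 for Ednrb (SE 0.330, adjusted p = 0.165). So 0 of 4 members passed in edgeR, against 20.0% of all genes and 12.0% as DEGs, with 1 member (Ece1) under 0.05 before adjustment (35.3% of all genes). By the adjusted p DESeq2 called 0 members (25.9% of all genes) and voom 2, Edn1 and Ece1 (47.8%), of which Edn1 was a DEG. Ece1 passed without control 9w replicate 2 (−1.01, adjusted p = 0.0262) and without untreated replicate 2 (−0.96, adjusted p = 0.0415), and Edn1 without untreated replicate 2 (−2.92, adjusted p = 0.0353). Other libraries moved the values towards 0 in edgeR. Ece1 was at −0.42 without control 9w replicate 3 (adjusted p = 0.326), and Edn1 at −0.91 without HFpEF replicate 1 (adjusted p = 0.575). Eif2s3y counts were absent from all untreated libraries but only from replicates 1 and 3 of HFpEF, and all control libraries had them. Part of the difference between weeks therefore cannot be told apart from that split.

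Whether the drugs acted together otherwise than by adding on the log2 scale was tested as EMPA + PFD minus EMPA, less PFD minus untreated. A value of 0 there means that the fold changes of EMPA and PFD multiply. The log2 values were −0.13 for Edn1 (SE 1.21, adjusted p = 0.989), 0.63 for Ece1 (SE 0.380, adjusted p = 0.65), −0.40 for Ednra (SE 0.289, adjusted p = 0.719) and −0.12 for Ednrb (SE 0.370, adjusted p = 0.953). Again 0 of 4 passed in edgeR, against 0.00807% of all genes as calls and 0.00807% as DEGs, with 0 members under 0.05 before adjustment (9.13% of all genes) and 0 called in DESeq2 (0.436%) and in voom (0.88%). With 2 libraries each of EMPA and PFD, the intervals of Edn1 (−2.71 to 2.45), Ece1 (−0.18 to 1.44) and Ednra (−1.01 to 0.22) include interactions of more than 1 log2 unit. Of the groups in this test only EMPA lacked RT1-CE16 counts, so that split and the interaction cannot be told apart.

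The other genes of the pathway were listed by role as 66 symbols, from processing enzymes over G proteins, phospholipase C, protein kinase C, receptor desensitization, MAP kinase and NFAT signalling to the nitric oxide counterpart, regulators of Edn1 transcription and cardiac target genes; 63 were in the files and 62 were tested. Between the controls of weeks 9 and 5, 6 were higher and 7 lower as DEGs (14.7% of all genes were DEGs), and their median log2 fold change was −0.08 against −0.04 for all genes. Between HFpEF and control 5w, 4 were higher and 2 lower (8.69% of all genes), with a median of 0.11 against 0.02 for all genes. Between untreated and control 9w 0 were higher and 1 lower (0.912% of all genes, median 0.19 against 0.01), and between EMPA + PFD and untreated 2 were higher and 0 lower (3.82% of all genes, median −0.33 against −0.03). None was a DEG with EMPA alone, with PFD alone, between untreated and HFpEF or in the test of the drugs' interaction, while 13 were between EMPA + PFD and HFpEF (22.7% of all genes), 7 between EMPA + PFD and control 9w (12.1%) and 11 in the difference between weeks (12.0%).

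Of the listed regulators of Edn1 transcription, Gata2, a transcription factor of endothelial and blood cells, was at 23.0 to 32.8 CPM in control 5w and 119 to 189.5 CPM in control 9w (log2 fold change 2.49, SE 0.296, adjusted p = 0.000123). Klf2, a factor induced by blood flow in endothelium, was at 39.8 to 86.0 CPM in control 5w, 132 to 215 CPM in HFpEF and 221.5 to 275 CPM in control 9w. Klf2 rose by 1.90 in control 9w (SE 0.252, adjusted p = 0.000208) and by 1.38 in HFpEF (SE 0.248, adjusted p = 0.00307), with no overlap with control 5w in either (49.4% and 37.7% of all genes did not overlap), and the related Klf4 rose from 87.15 to 102 CPM in control 5w to 177 to 288 CPM in HFpEF (1.40, SE 0.195, adjusted p = 0.000742). Klf2 in HFpEF did not pass when only the groups compared were fitted (adjusted p = 0.0581). The summed endothelial markers moved with these genes, with means of 1966 CPM in control 5w, 3306 CPM in HFpEF and 4447 CPM in control 9w, and their part in these changes was not tested.

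Fos, an immediate early gene, was at 1.88, 14.0 and 11.9 CPM in control 5w and 75.6, 10.8 and 53.8 CPM in HFpEF (log2 fold change 2.32, SE 0.733, adjusted p = 0.0377), so HFpEF replicate 2 overlapped the controls. The Fos call was lost without any one control 5w library (adjusted p = 0.0523 to 0.104), without HFpEF replicate 1 (1.79, adjusted p = 0.127) or 3 (0.0722), with only the groups compared (0.139) and with a replicate block (0.0598). It was also lost, with the log2 fold change down to 0.21 with Eif2s3y detection as a term and 0.28 among libraries with Eif2s3y counts (adjusted p = 0.899 and 0.866), both of which rest on HFpEF replicate 2 and cannot be told apart from that library. Nos1, the neuronal nitric oxide synthase, was higher in control 9w than in control 5w (2.62, SE 0.840, adjusted p = 0.0264) on few counts, 3, 6 and 9 in control 5w and 25, 3 and 60 in control 9w. The Nos1 call was lost without control 9w replicate 3 (1.68, adjusted p = 0.152), without control 9w replicate 1 (0.0507) without any one control 5w library (0.0502 to 0.0779) and without control 9w replicate 3 and untreated replicate 2 together (0.0973), and the control 9w libraries with more Nos1, replicates 1 and 3, were those with more Myl7. Mmp2, a matrix protease that can also cleave the endothelin precursor, was at 266, 1233 and 1041 CPM in control 5w and 240.4, 153 and 263 CPM in control 9w (−1.95, SE 0.480, adjusted p = 0.00697), where the fibroblast list summed to 4505, 44963 and 36467 CPM in control 5w and 4324, 3073 and 4606 CPM in control 9w.

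Downstream of the receptors, Prkce, the epsilon isoform of protein kinase C, changed in both directions. Its level was 27.2, 20.1 and 20.5 CPM in control 5w and 5.53 and 8.80 CPM in HFpEF replicates 1 and 2 (77 and 96 counts), with replicate 3 the highest of the group at 112 counts and an HFpEF mean of 8.11 ± 2.32 CPM (log2 fold change −1.48, SE 0.244, adjusted p = 0.00185). It was 14.35, 8.93 and 10.85 CPM in untreated and 23.4, 41.0 and 33.2 CPM in EMPA + PFD (1.52, SE 0.242, adjusted p = 0.00677). The groups did not overlap in either comparison (37.7% and 37.4% of all genes did not), the first kept its call in every alternative run, and the second lost it when only the groups compared were fitted (1.51, adjusted p = 0.0827) and with Eif2s3y detection as a term (1.33, adjusted p = 0.102). The cardiomyocyte sums were 79231, 33519 and 37623 CPM in control 5w and 10686, 21006.5 and 31674.5 CPM in HFpEF, with 2 of 9 genes lower at an adjusted p under 0.05 and 0 higher (median −1.24). They were 62373, 19706 and 51161 CPM in untreated and 62242, 88869 and 74049 CPM in EMPA + PFD, with 1 of 9 higher and 0 lower (median 0.84). Of all tested genes, 20.0% passed in the first of these comparisons and 12.1% in the second. The part of the cardiomyocyte sums in the Prkce changes was not tested.

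Gnai3, an inhibitory G protein subunit, was at 428, 434.5 and 401 CPM in control 9w and 170.2, 213.5 and 203 CPM in untreated (log2 fold change −1.11, SE 0.203, adjusted p = 0.0206). The call was lost without control 9w replicate 1 (adjusted p = 0.0837) or 2 (0.0897) and without untreated replicate 1 (0.109) or 3 (0.0623), where the log2 fold change was −1.02 to −1.13. It was lost too with Eif2s3y detection as a term, at a larger log2 fold change of −1.33 (adjusted p = 0.196). Prkg1, the kinase activated by cyclic GMP downstream of nitric oxide, was at 5.38, 3.57 and 3.37 CPM in untreated and 5.44, 15.4 and 10.55 CPM in EMPA + PFD (1.35, SE 0.336, adjusted p = 0.0248). Prkg1 lost its call without EMPA + PFD replicate 2 (0.98, adjusted p = 0.127) or 3 (0.0665) and without untreated replicate 2 (0.104) or 3 (0.0703). It also lost it with only the groups compared (1.34, adjusted p = 0.118), with Eif2s3y detection as a term (1.91, adjusted p = 0.0938) and without control 9w replicate 3 and untreated replicate 2 together (1.26, adjusted p = 0.117).

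The genes whose levels were most alike each member over the 19 libraries, among 11737 genes with a mean of at least 1 CPM, are a description with no test, and the libraries share groups. For Edn1 they were Klhl29 (Pearson correlation of log2 CPM 0.918), Csgalnact1 (0.913) and Erf (0.905). For Ece1 they were Plpp4 (0.893), Stard10 (0.882) and Bmx (0.877), whose Spearman correlations of 0.756, 0.760 and 0.705 were lower. For Ednra they were Ehbp1l1 (0.898), Aak1 (0.885) and Trak2 (0.876), and for Ednrb F2rl1 (0.812), Chrdl1 (0.807) and Plat (0.785). Among the members themselves the highest correlation was that of Ednrb and Ece1 (0.593) and the lowest that of Ednra and Ednrb (−0.455), and with group means removed these were 0.406 and 0.260.

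RefSeq's promoter table for the GRCr8 assembly held 4 of the 5 members, Edn1, Ednra, Ednrb and Ece1, while the counts were made on the rn6 assembly. The 250 bases before the annotated start were searched on both strands for TGANTCA and its variant TGACTAA, both bound by AP-1 factors such as Fos, for AGATAA, bound by GATA factors, for ACGTG, the core of the hypoxia response element, and for the TATA box TATAAA. Edn1 is shown because its level varied most among libraries and because it alone held any of these letters. It held TGACTAA from 186 to 180 bases before the start, AGATAA on the opposite strand from 214 to 209, ACGTG on the opposite strand from 201 to 197 and TATAAA from 110 to 105, none overlapping another. The stretch, chr17:22666688-22666937 on the minus strand, reads as follows with the matches in capitals.
Edn1: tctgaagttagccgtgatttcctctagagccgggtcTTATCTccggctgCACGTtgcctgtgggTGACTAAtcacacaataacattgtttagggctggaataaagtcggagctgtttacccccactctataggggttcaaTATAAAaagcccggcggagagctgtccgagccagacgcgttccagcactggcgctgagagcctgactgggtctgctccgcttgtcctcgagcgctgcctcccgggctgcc
Among 33469 promoters of the same length, TGACTAA was found in 1.99%, TGANTCA in 6.34%, AGATAA in 10.3%, ACGTG in 16.6% and TATAAA in 12.9%. A match is a description of these letters and does not show that a factor binds.

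In the same assembly Ednra overlaps the locus LOC134483343, and no other member overlaps a gene. As the strand setting of the counting is not given in the sources used here, reads of such a locus and of Ednra could not be separated if it was part of the annotation.

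The remaining marker lists were read as sums over each library, and the gene named for each is the most abundant by its mean over all libraries. Lymphatic endothelial genes summed to 84.9 to 1174.5 CPM (most abundant Ccl21), endocardial genes to 35.2 to 566 CPM (Cdh11), smooth muscle and pericyte genes to 1438.5 to 3828.5 CPM (Abcc9), and fibroblast genes to 2095 to 44963 CPM (Col3a1). Macrophage and myeloid genes summed to 289 to 2776 CPM (Lyz2), lymphocyte genes to 17.5 to 178 CPM (Cd4), mast cell genes to 21.5 to 53.9 CPM (Kit), and Schwann cell and nerve genes to 78.6 to 511 CPM (Ncam1). Adipocyte genes summed to 556 to 3660.0 CPM (Fabp4), red blood cell genes to 136.7 to 3642 CPM (Hbb) and mesothelial genes to 29.3 to 195 CPM (Wt1). HFpEF replicate 1 held the highest lymphatic endothelial, macrophage, lymphocyte and nerve sums, and no listed gene in the files was at 0 counts in every library.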

How the data were processed

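Left ventricular RNA of 19 rats in 7 groups was sequenced. By the sources used here, the authors used Trim Galore for trimming, FastQC for quality, HISAT2 on rn6 for alignment and htseq-count for counting; tool versions, annotation release and strand setting are not given there. The deposited values are counts by gene symbol with no scaling, and the whole-series table, which holds the same values, served only as a check. Groups and replicate numbers follow the labels, and replicates are separate hearts by the study's text.

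TMM factors and the quasi-likelihood F test came from edgeR 4.0.16 under R 4.3.3. The fit was 1 model of all libraries over the 12388 genes kept by filterByExpr, with Benjamini-Hochberg adjustment in each of 11 comparisons. DEGs needed an adjusted p below 0.05 and at least a 2-fold change. Standard errors were derived from F, and intervals are 95%. The floor was 3 counts. The code was tried on simulated counts.

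The text names the 5 members in each comparison, at most the 4 pathway DEGs with the largest change in each of 4 comparisons, the 3 genes most alike each tested member (log2 CPM, prior count 2), and the most abundant gene of each of 14 marker lists. Edn2, Myl7, Npr3, Tnnt2, Eif2s3y and RT1-CE16 fall outside this rule and were named after their values were seen. The members and lists were chosen with earlier results of these data known. Promoter sequence is from RefSeq's GRCr8 table.

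The alternatives were RLE and upper quartile normalization, no filter beyond 1 count, at least 10 counts in every library, DESeq2 1.42.0, voom with quality weights (limma 3.58.1), only the groups compared, the adjusted p alone, a replicate block, Eif2s3y detection as a term, only libraries with or without Eif2s3y counts, and leaving out each library. Leaving out control 9w replicate 3 and untreated replicate 2, the libraries with the largest sums of atrial markers, was added after seeing the data.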

Additional observations from a re-analysis of the deposited data

How the results depend on the processing

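The 4 tested members gave 1344 recomputed log2 fold changes over 32 settings, of which 1277 kept their sign and their state under the DEG rule, 22 kept their sign and became DEGs or, in the setting that asks for no fold, calls, and 45 changed sign; where no cause is named below, the cause was not tested. No member was a DEG to begin with, so none could be lost under that rule, but calls by the adjusted p were lost. Of the 19 fits that left out 1 library and the 11 other alternatives, Ece1 between the controls passed in 19 and 11, Ednrb between the controls in 17 and 10, and Ednrb between HFpEF and control 5w in 12 and 8. Ednra between EMPA + PFD and HFpEF passed in 17 and 10, Ednra between EMPA + PFD and control 9w in 16 and 9, and Ece1 there in 14 and 8. By the adjusted p alone 2 members passed between the controls (34.5% of all genes), 1 between HFpEF and control 5w (20.0%), 1 between EMPA + PFD and HFpEF (46.8%) and 2 between EMPA + PFD and control 9w (33.8%), since no fold was asked for. With only the groups compared 1 member became a DEG between the controls (Ece1), 1 between EMPA + PFD and HFpEF (Edn1) and 1 between EMPA + PFD and control 9w (Edn1). In that fit of the control groups 3838 of 11766 genes passed by the adjusted p. Edn1 was also the 1 DEG between EMPA + PFD and control 9w in DESeq2, in voom and among libraries with Eif2s3y counts, and in voom the 1 DEG between untreated and control 9w, between untreated and HFpEF and in the difference between weeks. When each library was left out in turn, the count of member DEGs ranged from 0 to 1 between the controls, between EMPA + PFD and HFpEF, between EMPA + PFD and control 9w and in the difference between weeks, and was 0 in the others. The shares of all genes that met the DEG rule under these alternatives are not given here, so the DEG counts have no background beside them.

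Changes of sign fell on estimates that had not passed. For Edn1, HFpEF against control 5w was −0.15 in voom, −0.42 with Eif2s3y detection as a term and −0.35 among libraries with Eif2s3y counts (1 HFpEF library), and −0.15 to 0.92 with each library left out. EMPA + PFD against untreated was 0.37 in voom, 0.35 with the Eif2s3y term, 0.44 without both libraries rich in atrial markers and −1.29 to 0.44 with each library left out. PFD against untreated was 0.14 in voom, 0.46 without both atrial-rich libraries and −1.45 to 0.46 with each left out, EMPA against untreated −1.23 to 1.44, and the drugs' interaction −1.46 to 1.20. For Ednra, untreated against control 9w was 0.026 with upper quartile normalization, 0.0058 without the filter, 0.021 with only the groups compared, 0.026 without both atrial-rich libraries and −0.047 to 0.071 with each left out. Untreated against HFpEF was −0.16 in voom, −0.10 with the Eif2s3y term, −0.070 among libraries without Eif2s3y counts and −0.10 to 0.19 with each left out. For Ednrb, untreated against control 9w was −0.19 with the Eif2s3y term and −0.12 to 0.23 with each left out, PFD against untreated −0.087 to 0.38, untreated against HFpEF −0.037 to 0.38, and the interaction 0.041 in voom and −0.31 to 0.16 with each left out. For Ece1, EMPA + PFD against HFpEF was 0.062 with the Eif2s3y term and −0.16 to 0.028 with each left out, and untreated against HFpEF −0.12 in voom.

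The replicate block changed the count of member DEGs in no comparison, turned Ednra in untreated against control 9w to 0.00016, and left Ece1 between EMPA + PFD and control 9w at an adjusted p of 0.0515. The numbers do not pair the samples: of 52 pairs with the same number 41 had a correlation of deviations of at most 0.1 (median −0.0666), and 1 library correlated best with its own number. Upper quartile normalization moved the median log2 fold change of all genes by −0.11 in EMPA + PFD against HFpEF. By library size alone Ednra averaged 125 CPM in control 5w, 157 in EMPA and 117 in EMPA + PFD against 97.7 in untreated, 98.89 in HFpEF and 98.87 in control 9w, so EMPA + PFD ranked below control 5w. Libraries with Eif2s3y counts could be compared in 4 comparisons and those without in 2, the others lacking a group. Edn1 had 26 to 59 counts in the libraries under its median of 77, and Edn3 and Edn2 were too low to test at this depth.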
